A study of Mus musculus with 2 samples.

Results

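Bile acid synthesis and hepatic transport genes were compared between the livers of CREBH-Tg and WT mice on a list of 35 genes, and 34 of them gave a signal well above background on each array. The list holds 13 enzymes of bile acid synthesis and conjugation, 11 solute carriers, and 11 exporters (10 ABC transporters and the flippase Atp8b1). Members were found by matching the transcript accession of each non-control probe to its gene symbol, which gave 40 probes for the 35 genes. In all, 20660 genes were named this way, of which 13881 were measured on both arrays in the same sense. CREBH-Tg mice, of the C57B6J background, carried a human cDNA for active CREBH, a liver-enriched transcription factor encoded by Creb3l3, with transgene expression mainly in the liver. WT mice were C57B6J without the transgene. Both groups had eaten the HFHS diet for 12 weeks, so neither is a group on ordinary chow. Age, sex, the promoter of the transgene and the number of founder lines are not given in the sources used here. Liver RNA was pooled by genotype, 1 array was hybridised per pool, and the number of mice per pool is not stated. Each group is therefore 1 sample, no difference was tested, and differences are described by size.

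Bile acids are made from cholesterol in hepatocytes, either by a classical route that starts with Cyp7a1 or by an alternative route through oxysterols. They are conjugated, pumped into bile, taken up again in the ileum and returned to the liver, where carriers on the blood side bring them back into hepatocytes. The nuclear receptor FXR (Nr1h4) senses bile acids and is known to lower their synthesis and raise their export.

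Signals are given as the log2 of the array's processed intensity relative to that array's 75th percentile, which was 309 in CREBH-Tg and 333 in WT on the intensity scale. A log2 ratio is the CREBH-Tg signal minus the WT signal, so a positive value means higher in CREBH-Tg. Of 59305 non-control spots, 58.3% were well above background in CREBH-Tg and 55.4% in WT, and none was saturated. The error available is the spread of probes spotted at least 5 times. Its 95% range in log2 ratio was 0.40 for the dimmest of 3 equal signal classes of genes, 0.17 for the middle and 0.095 for the brightest. This spot range leaves out the spread between animals, pools, labelling reactions and hybridisations. Of the 34 measured members, 26 were bright by these classes, 3 were of middle signal and 5 were dim. Of the hepatocyte markers, 12 of 13 were measured on both arrays, among them Alb and Apob, and the other, Tf, had no named probe.

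The bile acid genes were mostly within 1.5-fold of equality between the genotypes, with 3 exceptions on the higher side. Slc51b, the beta subunit of the organic solute transporter that carries bile acids out across the basolateral membrane, was 2.62-fold higher in CREBH-Tg. Cyp39a1, an oxysterol hydroxylase, was 1.87-fold higher, and Slco1a4, an organic anion uptake carrier, 1.54-fold higher. No member was 1.5-fold lower. These 3 of 34 members (8.82%) stand against 2.33% of all measured genes at least 1.5-fold higher, and 0 members against 2.23% at least 1.5-fold lower. At 2-fold the counts were 1 member higher, against 0.663% of all genes, and 0 lower, against 0.67%. That member is Slc51b, whose log2 ratio fell short of 2-fold, at 0.89, with normexp background correction. Past a lower threshold, a log2 ratio of 0.32, 5 members were higher, against 8.02% of all genes, and 3 lower, against 7.18%. The median log2 ratio was -0.0048 over the 34 members and 0.027 over all 13881 genes. Of the members 17 lay above 0 and 17 below, against 56.2% of all genes above 0. In the brightest class 12 of 26 members (46.2%) lay above 0, against 66.1% of all genes of that class.

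**Figure D1:**
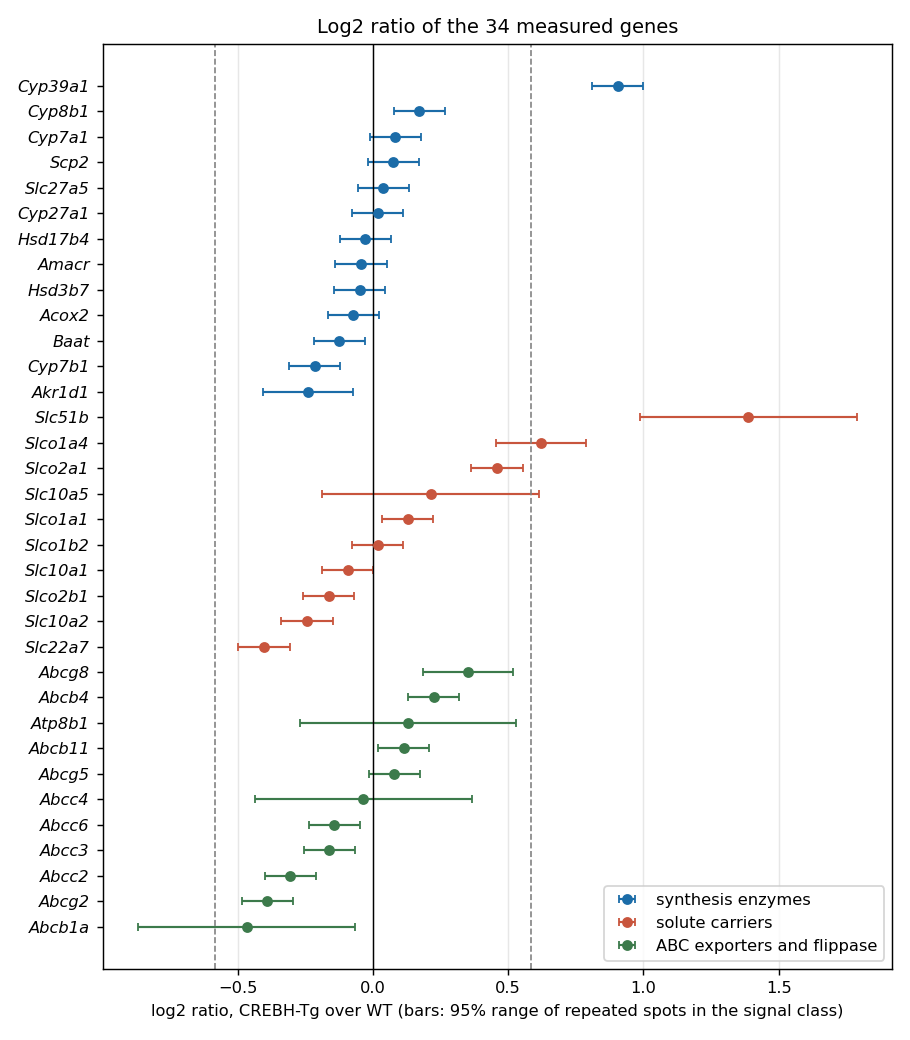
Log2 ratio of CREBH-Tg over WT (horizontal axis) for the 34 measured genes, by role. Points are 1 pooled array against 1, bars are the 95% range of repeated spots in the gene's signal class, and dashed lines mark 1.5-fold. Slc51b (1.39), Cyp39a1 (0.90) and Slco1a4 (0.62) lie beyond the dashed line on the right and no gene lies beyond the one on the left.

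Slc51b forms a heterodimer with Slc51a, and both subunits are known to be needed for transport. The processed intensity of Slc51b was 122 in CREBH-Tg and 50.1 in WT. Its raw median spot intensity was 177.5 over a local background of 52 in CREBH-Tg and 96 over 52 in WT. The probe was well above background on both arrays but lay in the dimmest class, where 1.21% of all genes were at least 2-fold higher. Slc51a had processed intensities of 3.57 in CREBH-Tg and 3.86 in WT and was not well above background on either array, so no ratio is given for it. The 2 subunits therefore differed in whether they were measurable at all. The 250 bases upstream of each start are shown because they compare the subunit with the highest ratio with its partner. They come from RefSeq on GRCm38.p6 as chr9:65422774-65423023 for Slc51b and chr16:32487880-32488129 for Slc51a, both on the minus strand and written 5′ to 3′ in the direction of transcription. Capitals mark the motif AGGTCA, a core site of nuclear receptors, on either strand.
Slc51b: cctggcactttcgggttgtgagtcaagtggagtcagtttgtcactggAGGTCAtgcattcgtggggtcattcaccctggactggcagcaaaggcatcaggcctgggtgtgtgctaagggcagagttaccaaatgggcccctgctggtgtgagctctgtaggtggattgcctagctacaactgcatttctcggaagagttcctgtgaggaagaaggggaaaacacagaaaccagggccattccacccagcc
Slc51a: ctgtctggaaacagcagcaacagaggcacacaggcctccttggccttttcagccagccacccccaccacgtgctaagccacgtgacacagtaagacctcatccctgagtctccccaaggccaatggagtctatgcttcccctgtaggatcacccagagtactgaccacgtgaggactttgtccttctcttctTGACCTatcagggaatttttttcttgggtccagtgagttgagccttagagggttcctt

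Each of the 2 windows held 1 such match. In Slc51b it lay 203 to 198 bases before the start, and in Slc51a 58 to 53 bases before it, on the opposite strand. Of 32851 RefSeq windows of this length, 14.0% held AGGTCA on either strand. Neither window held TGACGTCA, the full cAMP response element bound by the CREB and ATF families, or its shorter core TGACG, which were in 1.55% and 17.8% of all windows. The inverted repeat AGGTCANTGACCT, the element FXR is best known to bind, was in 2 of the 32851 windows and in none of the members'. A RefSeq window was at hand for 23 of the 35 members, in 31 windows in all, and 11 of these held AGGTCA. Only Abcg2 among these members held TGACGTCA. These matches describe letters and not binding.

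Slc51b is also expressed by bile duct cells and, in the ileum, by enterocytes. In a bulk liver sample fewer cells of a type and less RNA per cell cannot be told apart. Of 14 cholangiocyte markers 12 were measured, 2 of them above 0, with a median log2 ratio of -0.12. Their summed signal, in units of the 75th percentile, was 77.3 in CREBH-Tg and 74.4 in WT. Most of that sum is Aqp1 and Slc4a2, both named after their values were seen. Aqp1 had 5.37 in CREBH-Tg and 5.16 in WT, and Slc4a2 had 5.03 in CREBH-Tg and 5.09 in WT. The sum is therefore higher in CREBH-Tg although 10 of the 12 markers lay below 0. Epcam was not well above background on either array. Krt23, the marker farthest from 0, was 1.47-fold lower. Of 12 ileal enterocyte markers 5 were measured, 2 of them above 0, with a median of -0.12 that was -0.012 with the filter on dim probes dropped or tightened. Their summed signals were 212 in CREBH-Tg and 184 in WT. Most of that sum is Fabp2, a fatty acid binding protein added after its value was seen, which had 7.27 in CREBH-Tg and 6.95 in WT, a log2 ratio of 0.32 past the spot range. The ileal bile acid binding protein Fabp6 was not well above background on either array, and neither were Cdx2, Slc5a1, Alpi and Lct. Sis, a sugar-digesting enzyme, was 1.75-fold lower and dim. The part of these cells in the Slc51b value was not tested.

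**Figure D2:**
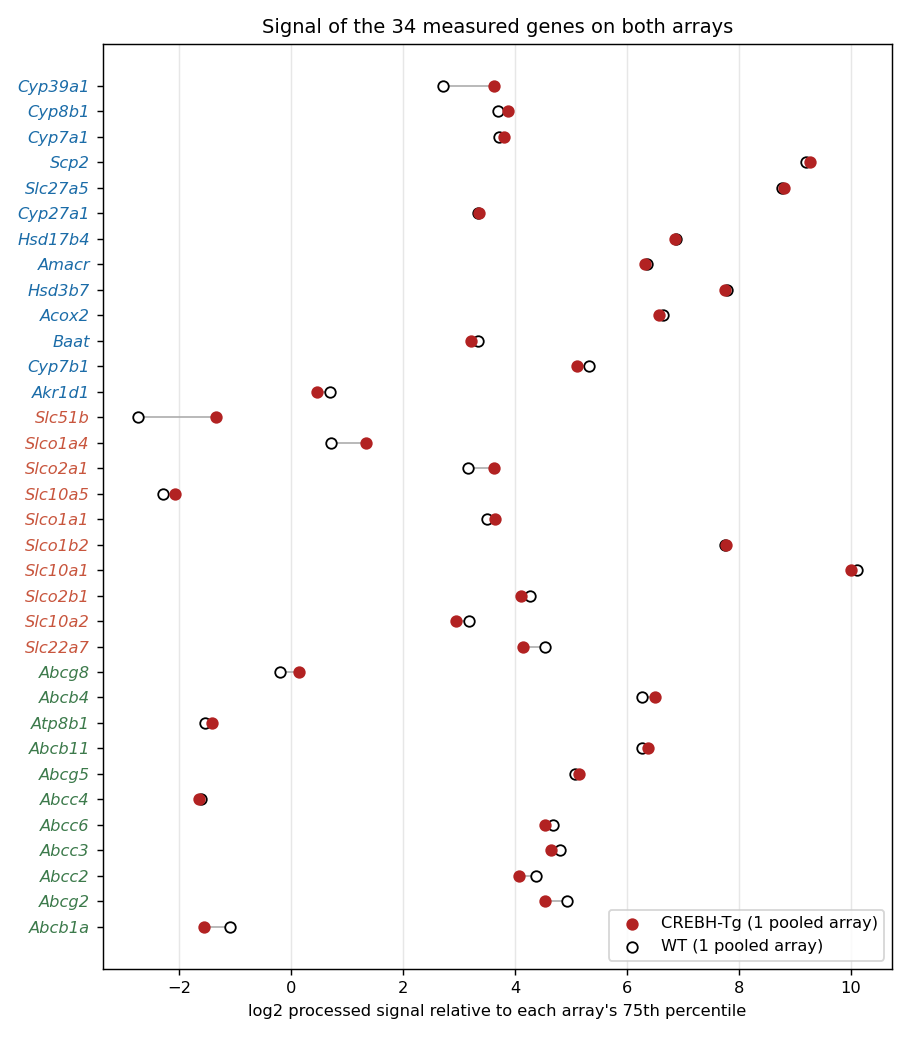
Log2 processed signal relative to the array's 75th percentile (horizontal axis) for each of the 34 measured genes, with filled points for CREBH-Tg and open points for WT, 1 pooled array each. Gene names are coloured by role (blue for enzymes, red for solute carriers, green for exporters). The widest gap is that of Slc51b, at -1.34 in CREBH-Tg and -2.73 in WT. Signals of different genes come from different probes and are not comparable with each other.

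Among the synthesis enzymes, 12 of 13 had log2 ratios between -0.24 and 0.17 and Cyp39a1 was the exception. The median log2 ratio of the 13 was -0.028, with 6 above 0 and 7 below. Cyp7a1, the rate-limiting enzyme of the classical route, had log2 signals of 3.80 in CREBH-Tg and 3.72 in WT. Its ratio of 0.084 was inside the spot range. Cyp8b1, which directs the classical route to cholic acid, had 3.87 in CREBH-Tg and 3.69 in WT. Its log2 ratio of 0.17 was past the spot range, a 1.13-fold difference.

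In the alternative route the enzymes went both ways. Cyp27a1, the mitochondrial sterol hydroxylase that opens this route, had signals of 3.35 in CREBH-Tg and 3.34 in WT. It was spotted 8 times, and its log2 ratio was 0.018 ± 0.066 (SD over its 8 spots, not over animals). Cyp7b1, the next hydroxylase, had 5.11 in CREBH-Tg and 5.33 in WT and was 1.16-fold lower, past the spot range. Cyp39a1 acts on an oxysterol formed mainly in brain. It had 3.62 in CREBH-Tg and 2.71 in WT, from processed intensities of 3793 in CREBH-Tg and 2185 in WT. That log2 ratio of 0.90 was in the brightest class of genes, where 1.12% were at least 1.5-fold higher, and it rests on 1 probe spotted once. Cyp46a1, which makes the oxysterol that Cyp39a1 uses and was chosen after its value was seen, had a log2 ratio of -0.054, inside the spot range of its class. Cyp39a1 has no promoter window in the table used here.

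The later steps of synthesis were nearly equal. Hsd3b7, which acts on the sterol ring after the first hydroxylation, had a log2 ratio of -0.048, inside the spot range. Akr1d1, the reductase that follows it, had 0.46 in CREBH-Tg and 0.70 in WT and was 1.18-fold lower, past the range of its class. The peroxisomal enzymes that shorten the side chain had ratios of -0.044 for the racemase Amacr, -0.072 for the oxidase Acox2, -0.028 for the bifunctional Hsd17b4 and 0.075 for the thiolase Scp2. All 4 lay inside the spot range, which is that of a single spot. Amacr was spotted 10 times and its value is a mean, for which that range is too wide. Its spot ratios had an SD of 0.028 and ran from -0.078 to 0.0032. Slc27a5, the ligase that activates bile acids for conjugation, had a ratio of 0.038. Baat, which joins them to taurine or glycine, had 3.21 in CREBH-Tg and 3.33 in WT and was 1.09-fold lower, just past the spot range.

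The solute carriers had the widest spread. The median log2 ratio of the 10 measured was 0.073, with 6 above 0 and 4 below, from -0.40 for Slc22a7 to 1.39 for Slc51b. Slc10a1, the sodium-dependent carrier that takes up most conjugated bile acids, had 10.01 in CREBH-Tg and 10.10 in WT. Its log2 ratio of -0.093 was inside the spot range, and its other probe gave -0.13. Slco1b2, the main sodium-independent carrier of mouse hepatocytes, had a ratio of 0.018.

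Slco1a4 and Slco1a1 lie in 1 gene cluster with Slco1b2, with no protein-coding gene between the first 2, and they differed in size. Slco1a4 had 1.33 in CREBH-Tg and 0.71 in WT, a log2 ratio of 0.62, and Slco1a1 had 3.63 in CREBH-Tg and 3.50 in WT, a ratio of 0.13. Both were past the spot range of their class, and with normexp background correction Slco1a4 was at 0.54, short of 1.5-fold. Slco1a5 and Slco1a6, of the same cluster, did not rise well above background on either array. The genes of this cluster are related in sequence, and whether their probes bind each other's transcripts was not tested. The 250 bases upstream of Slco1a4 are shown as those of the carrier with the next highest ratio after Slc51b (RefSeq, GRCm38.p6, chr6:141856221-141856470, minus strand, written in the direction of transcription). They held none of the 4 motifs searched, so no base is in capitals.
Slco1a4: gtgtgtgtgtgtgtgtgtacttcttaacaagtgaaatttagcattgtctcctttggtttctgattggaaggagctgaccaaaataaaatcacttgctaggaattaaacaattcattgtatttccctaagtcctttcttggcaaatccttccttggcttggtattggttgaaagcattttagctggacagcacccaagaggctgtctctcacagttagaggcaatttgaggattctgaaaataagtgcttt

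Slco1a4 is a known target of the xenobiotic receptors PXR (Nr1i2) and CAR (Nr1i3). Of 14 measured CAR and PXR targets, other than Slco1a4, 5 lay above 0, against 56.2% of all genes. Among the 14, 0 were 1.5-fold higher, against 2.33% of all genes, and 4 were 1.5-fold lower, against 2.23%. Cyp2b10 was 2.25-fold lower, Cyp2b9 2.06-fold, Cyp2b13 2.03-fold and Cyp2c55 1.55-fold. The last 3 were in the dimmest class, where 5.32% of all genes were at least 1.5-fold lower. Past the spot range 2 of the 14 were higher, against 21.0% of all genes, and 6 lower, against 13.2%. The 2 were the bright Cyp3a11 and Cyp3a13, with log2 ratios of 0.18 and 0.19, added after their values were seen. In mouse liver Slco1a1 and Cyp7b1 are known to be higher in males and Slco1a4 in females. Of 14 measured male-biased genes 3 lay above 0, and the median log2 ratio was -0.21. Among them 5 were at least 1.5-fold lower, against 2.23% of all genes, and 0 that much higher, against 2.33%. The dim Moxd1 was 3.995-fold lower, Cyp4a12a 3.03-fold, Cyp4a12b 2.87-fold, Susd4 1.55-fold and Hsd3b5 1.51-fold. The bright Elovl3 went the other way, at 1.49-fold higher. Hsd3b5 and Elovl3 were added after their values were seen. Of 9 measured female-biased genes 4 lay above 0. At least 1.5-fold higher was 1, against 2.33% of all genes, and 2 were that much lower, against 2.23%. These 3 female-biased genes were Cyp3a44, 2.25-fold higher, and the CAR and PXR targets Cyp2b9 and Cyp2b13 named above, all dim. The bright Cyp2a4, added after its value was seen, was 1.46-fold lower. Past the spot range 3 of the 9 were higher, against 21.0% of all genes, and 5 lower, against 13.2%. The median of the 9 was -0.39, against -0.11 with normexp background correction and -0.19 with the filter on dim probes dropped or tightened. Whether the sex or hormonal state of the pooled mice had a part in the Slco values was not tested.

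The other carriers differed by less than 1.5-fold. Slco2a1, a prostaglandin carrier, had 3.63 in CREBH-Tg and 3.17 in WT and was 1.37-fold higher, well past the spot range of 0.095. It is known in endothelial cells, whose 12 markers had a median log2 ratio of 0.11, with 10 above 0, against 56.2% of all genes. The summed signals of the 12 were 126 in CREBH-Tg and 114 in WT. Emcn, the endothelial marker farthest from 0, was 1.40-fold higher and dim. Past the spot range 4 of the 12 were higher, against 21.0% of all genes, and 1 lower, against 13.2%. The lower one was Lyve1, named after its value was seen, at 1.27-fold. The part of endothelial cells was not tested. Slc22a7, an organic anion transporter of the hepatocyte's blood side, had 4.14 in CREBH-Tg and 4.54 in WT and was 1.32-fold lower. Slc10a2, the apical bile acid carrier of ileum and bile ducts, had 2.94 in CREBH-Tg and 3.18 in WT and was 1.18-fold lower. Both were past the spot range. Slco2b1 was lower on both of its probes, at -0.16 and -0.13. Slc10a5, a carrier of the same family as Slc10a1, had a ratio of 0.21, inside the range of the dimmest class.

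**Figure D3:**
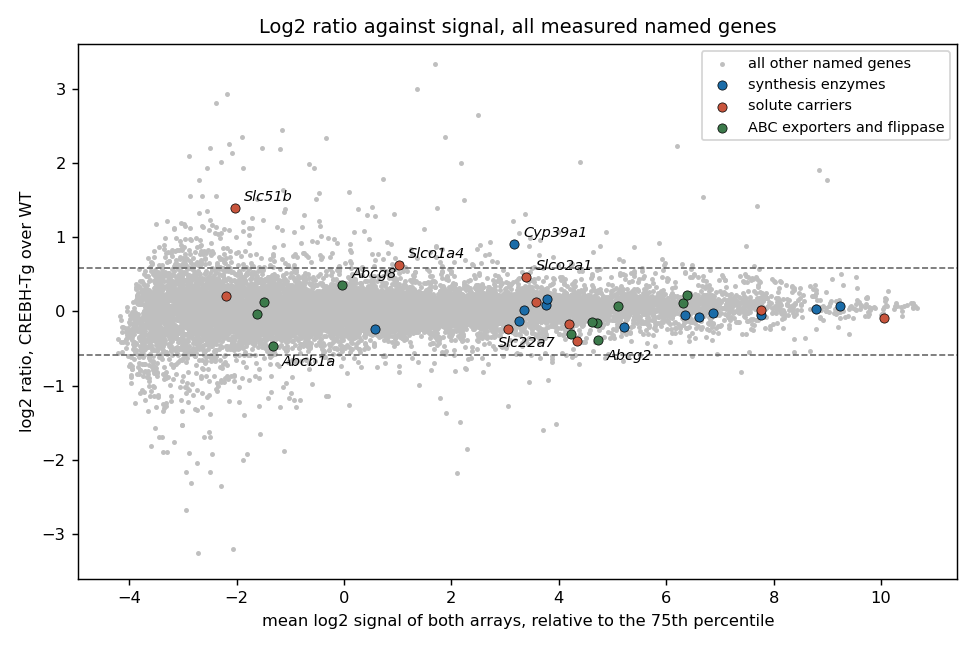
Log2 ratio of CREBH-Tg over WT (vertical axis) against the mean log2 signal of both arrays (horizontal axis), with members coloured by role over all other measured named genes in grey and dashed lines at 1.5-fold. The spread of grey points widens toward dim signals, where Slc51b lies, whereas Cyp39a1 and Slco2a1 lie among bright genes.

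Exporters of the canalicular membrane, which faces bile, went both ways. The 11 exporters, those of the blood side included, had a median log2 ratio of -0.035, with 5 above 0. None was 1.5-fold apart, against 4.55% of all genes. The bile salt export pump Abcb11 had 6.38 in CREBH-Tg and 6.26 in WT, a ratio of 0.11. The phosphatidylcholine floppase Abcb4 had 6.50 in CREBH-Tg and 6.27 in WT, a ratio of 0.22. Both ratios were past the spot range, that of Abcb4 in all 10 settings and that of Abcb11 in 6. Those settings include the rescaled value table, probe averaging and the filter changes, which left both genes all but unchanged. With quantile normalization and with loess Abcb11 was at 0.035. With the 75th percentile over detected probes it was at 0.087 and with normexp at 0.091, all inside the spot range. Abcc2, which exports conjugated organic anions, had 4.07 in CREBH-Tg and 4.38 in WT and was 1.24-fold lower. Abcg2, an exporter of drugs and sulfated compounds, had 4.54 in CREBH-Tg and 4.93 in WT and was 1.31-fold lower, also past the range. Abcb1a, the drug pump P-glycoprotein, had -1.55 in CREBH-Tg and -1.09 in WT and was 1.38-fold lower in the dimmest class. It lies near Abcb4, with Abcb1b as the 1 protein-coding gene between them, and Abcb1b was not well above background on either array.

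Abcg5 and Abcg8 form an obligate pair that exports sterols into bile, and they are transcribed in opposite directions from adjacent starts. Abcg5 had 5.15 in CREBH-Tg and 5.07 in WT, a log2 ratio of 0.079 inside the spot range. Abcg8 had 0.15 in CREBH-Tg and -0.20 in WT, a ratio of 0.35 past the range of 0.17 of its class. Each ratio rests on 1 spot, and the difference between the 2 genes was not tested. The 109 bases between their starts are shown because both genes share them (RefSeq, GRCm38.p6, chr17:84683012-84683120, written on the strand of Abcg8). They held none of the 4 motifs searched.
Abcg5-Abcg8: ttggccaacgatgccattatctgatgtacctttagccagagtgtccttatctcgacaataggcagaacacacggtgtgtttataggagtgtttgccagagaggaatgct

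Abcc3 and Abcc4 export organic anions, bile acid conjugates among them, across the blood side. Abcc3 had 4.64 in CREBH-Tg and 4.80 in WT, a log2 ratio of -0.16 past the spot range. Abcc4 had -1.64 in CREBH-Tg and -1.61 in WT, a ratio of -0.035 inside the range of its dim class and above 0 in 2 of 10 settings. Abcc6, whose loss causes ectopic mineralisation, was lower on both probes, at -0.14 and -0.30. Atp8b1, a canalicular phospholipid flippase whose loss causes cholestasis, had -1.42 in CREBH-Tg and -1.55 in WT, a ratio of 0.13 inside the range of its class. Of 11 measured NRF2 targets, a list set beside Abcc3 and Abcc4, 9 lay above 0, against 56.2% of all genes. The median of the 11 was 0.053 and none was 1.5-fold apart, against 4.55% of all genes. Ces1g, farthest from 0, was 1.35-fold lower.

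By the spot range, which is narrower than 1.5-fold, 9 of 34 members (26.5%) were higher and 11 (32.4%) lower. Over all genes 21.0% were higher and 13.2% lower by the same measure. Among bright genes the members were 6 of 26 (23.1%) higher and 9 of 26 (34.6%) lower, against 36.1% and 15.5% of all genes in that class. This split depends on the scaling. Median scaling adds 0.089 to every log2 ratio by construction, and 15 members were then higher, against 37.3% of all genes, and 5 lower, against 7.23%. With quantile normalization 7 members were higher, against 17.0% of all genes, and 17 lower, against 15.2%. With loess 7 were higher, against 16.7%, and 16 lower, against 15.3%. Of all genes at least 1.5-fold apart, 323 were higher and 309 lower, and with median scaling 461 and 225. In all 10 settings, the reported one included, and with the spot range kept as reported, 7 members stayed past the spot range on the higher side, namely Slc51b, Cyp39a1, Slco1a4, Slco2a1, Abcg8, Abcb4 and Cyp8b1. On the lower side 5 did so, namely Slc22a7, Abcg2, Abcc2, Slc10a2 and Cyp7b1. The share of all genes past the range in every setting was not computed, so neither count can be set against all genes.

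**Figure D4:**
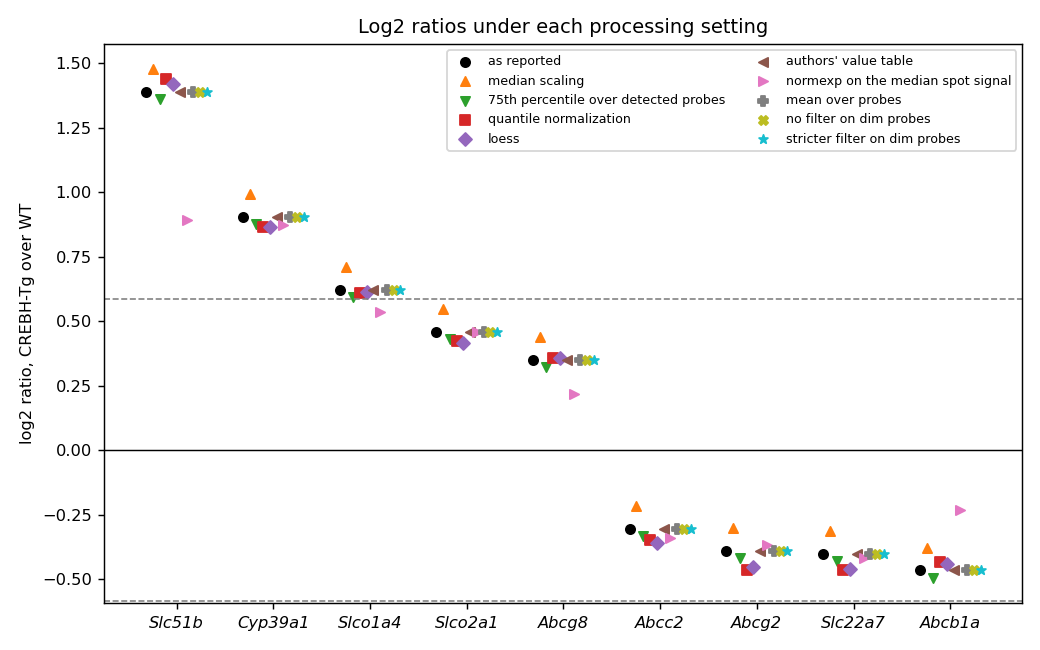
Log2 ratio of CREBH-Tg over WT (vertical axis) for 9 members far from 0 (horizontal axis) under the reported setting and 9 alternatives, each 1 marker, with dashed lines at 1.5-fold. Slc51b runs from 0.89 to 1.48 and Cyp39a1 from 0.86 to 0.99, whereas Slco1a4 runs from 0.54 to 0.71 and crosses the upper line.

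No regulator of the pathway reached 1.5-fold, which 4.55% of all genes did in either direction. Of 22 listed regulators 19 were measured, 11 of them above 0, with a median log2 ratio of 0.078. The coactivator Ppargc1a, the farthest from 0, was 1.34-fold lower. The following regulators were chosen after their values were seen, for their place in bile acid control. Nr1h4 had 4.99 in CREBH-Tg and 5.20 in WT, a ratio of -0.20, and the repressor Nr0b2, which FXR is known to induce, had 1.07 in CREBH-Tg and 0.90 in WT, a ratio of 0.18. Fgfr4 and Klb, the hepatocyte receptor for the ileal hormone Fgf15, had ratios of 0.11 and 0.16. The xenobiotic receptors Nr1i3 and Nr1i2 had ratios of -0.34 and -0.056. Except for Nr1i2, these 6 were past the spot range of their class, and 3 of those 5 were higher. Of the higher ones, Fgfr4 (0.106 against a range of 0.095) and Nr0b2 (0.178 against 0.167) were only just past it. Of all 19 measured regulators 7 were past the range on the higher side, against 21.0% of all genes, and 4 on the lower, against 13.2%. As for the members, such counts depend on the scaling. Neither Fgf15 nor Vdr rose well above background on either array.

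Other genes of bile acid handling showed no member at 1.5-fold either, against the same 4.55% of all genes. Of 35 listed, 28 were measured, with 14 above 0 and 14 below and a median log2 ratio of 0.0088. Ch25h, a cholesterol hydroxylase, was the farthest from 0, at 1.29-fold lower in the dimmest class. Hepatocyte markers had a median of 0.065, with 8 of 12 above 0, and Apoa1 was 1.27-fold higher. Macrophage markers had a median of -0.0089, with 7 of 14 above 0, and the scavenger receptor Marco was 1.94-fold lower.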

How the data were processed

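Total RNA of pooled livers, 1 pool per genotype, was labelled with Cy3 and hybridised to 1-colour Agilent arrays, per the labels' protocols. The deposited processed signal is an intensity that Agilent Feature Extraction 10.10.1.1 background-subtracted and detrended within each array, per the file headers. It was not scaled between arrays, so a gene's ratio depends on the scaling chosen. The deposited value table is the same intensity times 2.68 for CREBH-Tg and 2.59 for WT. Its medians were 81.0 and 89.8. How these constants were set is not stated there. As an alternative setting, this table was scaled to each array's 75th percentile as well, so the constants cancel.

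Here, log2 processed signals were reduced by each array's 75th percentile. Control spots were dropped, as were 300 spots that either array flags as outliers, and repeated spots of a probe were averaged. A probe was measured where more than 50% of its spots passed Agilent's test of being well above background, and a gene took its brightest probe measured on both arrays. Unversioned accessions were looked up in RefSeq's genes of GRCm38.p6 for names and gene order only, since the probe annotation lies on mm9. This named 27233 of 55677 probes. The error is the pooled SD of log2 ratios between single spots, from 276 probes with 5 or more spots. Its 95% range assumes normal noise. The number of arrays limits the precision.

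With 1 array per genotype no test was run. A difference of 1.5-fold, which exceeds the spot range in every class, was the threshold of size. All 35 members were named. Of every other list, up to 4 genes at least 1.5-fold apart were named, or the gene farthest from 0. The members and lists were chosen with earlier results of these data known. The calling steps were tested on simulated data with planted 2-fold changes and the noise of repeated spots only. That simulation holds no spread between animals, pools or hybridisations, so it does not bear on how far the calls would repeat. Alternatives were median scaling, the 75th percentile over detected probes, quantile normalization, loess (span 0.3), the value table of the authors, normexp with an offset of 50 on the median spot signal, averaging the probes of a gene, dropping or tightening the filter on dim probes, and a lower and a higher threshold (2-fold). Tools were R 4.3.3 with limma 3.58.1, and Python 3.11.15 with pandas 2.3.3, numpy 2.4.6, statsmodels 0.14.6 and scipy 1.17.1. Figures were drawn with matplotlib 3.10.9.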

Additional observations from a re-analysis of the deposited data

How the results depend on the processing

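No paired analysis was possible because each genotype has 1 array. Slc51b and Cyp39a1 were at least 1.5-fold higher in all 10 settings and Slco1a4 in 9. Under normexp, whose offset shrinks the ratios of dim genes by construction, Slco1a4 was at 0.54 and Slc51b at 0.89. The dim Abcb1a, at -0.47 in the reported setting, was at -0.23 there. No member was 1.5-fold lower in any of the 10. At 2-fold 1 member was higher, against 0.663% of all genes. At a lower threshold, a log2 ratio of 0.32, 5 were higher, against 8.02% of all genes, and 3 lower, against 7.18%. Of 34 members, 13 lay above 0 and 12 below in every setting, including those that repeat the reported values. The share of all genes that kept their sign in every setting was not computed, so neither count can be set against all genes.

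Scaling moved the medians and the counts past the spot range. Median scaling adds the same 0.089 to every gene, so the members' median minus that of all genes stayed at -0.032, and the median of all genes was 0.12. Under it 15 members were past the range on the higher side and 5 on the lower, with medians of 0.084 over the members, 0.061 over the enzymes, 0.16 over the solute carriers and 0.054 over the exporters. Under quantile normalization 17 members were lower past the range, and the medians were -0.089 over the members, -0.12 over the enzymes and -0.0028 over the solute carriers. Under loess these medians were -0.064, -0.11 and 0.0057. The median of all genes was 0.011 under quantile normalization and 0.0097 under loess. Normexp put the exporter median at 0.022, and no filter on dim probes put the solute carrier median at 0.018. Of the 11 related lists, 5 had a median above 0, against 7 under median scaling, 3 under quantile normalization and 3 under loess. In all 10 settings 3 lists were above 0 and 4 at or below it. The cholangiocyte median ran from -0.15 to -0.031 over them. Of the other values, for single members and single lists, 307 moved by less than the SD of a spot and 98 by more. The 307 include values that the rescaled value table, the probe averaging or the filter settings could not move. No member was measured on 1 array only, so no bound was computed.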

Other observations

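Other members of the same transporter families, chosen after the values were seen, were described in the same way. Of 29 further ABC transporters measured on both arrays, none was 1.5-fold apart, against 4.55% of all genes. The median log2 ratio of the 29 was 0.011. The farthest was Abca17, 1.45-fold higher. Abca1, which exports cholesterol to lipid-poor apolipoprotein, had log2 signals of 2.79 in CREBH-Tg and 3.06 in WT, a ratio of -0.28 past the spot range of 0.095. Of 15 further Slc22 genes, 5 lay above 0, and the dim Slc22a26 was 2.01-fold higher, at -1.51 in CREBH-Tg and -2.51 in WT. Slc22a26 belongs to a cluster of related genes, and whether its probe binds their transcripts was not tested. The scaffold protein Pdzk1, which binds transporters at the hepatocyte membrane, was 1.22-fold higher, at 4.87 in CREBH-Tg and 4.58 in WT. Among P4 ATPases, the family of Atp8b1, 7 further genes were measured and Atp8a1 was the farthest from 0, at 1.35-fold higher.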
